A study of Mus musculus with 6 samples.

Results

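Collagen genes were followed across the livers of 6 male C57BL/6 mice, 3 expressing Sonic Hedgehog (SHH, mice 26, 28 and 31) and 3 expressing green fluorescent protein (GFP, mice 6, 13 and 21). SHH is the secreted ligand that starts Hedgehog signalling, and GFP served as the control transgene. The genes were brought in by hydrodynamic transfection, in which a large volume of DNA solution is injected quickly and is taken up mainly by hepatocytes. The labels state no other treatment and name neither the promoter nor the species of the transgenes. Mouse age, time after injection and any batch are not in the labels. The chains were every gene with a symbol of the form Col, a number, a and a number that was named alone by a probe set, each read through its probe set with the highest mean over the 6 arrays. This gave 44 of 22180 genes: 11 fibrillar chains, 6 basement membrane chains, 9 FACIT chains and 18 others. Col21a1 was not analysed here. All values are log2 signals, so a difference of 1 is a doubling.

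Collagens are built from chains that wind around each other in a helix of glycine repeats, and each type uses its own set of chains. Fibrillar collagens, above all types I and III, make the banded fibres of scar tissue, and in fibrotic liver they come mainly from activated hepatic stellate cells and portal fibroblasts. Type IV collagen forms the sheet-like network of basement membranes. FACIT collagens (fibril-associated collagens with interrupted helices) sit on the surface of fibrils, and the remaining types include beaded filaments, hexagonal networks, membrane-anchored chains and the multiplexins of vessel walls. The comparison asks whether SHH in the liver went with higher collagen expression, fibrosis being the outcome that the series set out to assess.

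Shh signal itself was 4.57, 4.28 and 4.63 in SHH mice 26, 28 and 31, against 3.86, 3.43 and 3.67 in GFP mice 6, 13 and 21, so the groups did not overlap, although the difference of 0.84 (95% interval 0.48 to 1.19) missed the threshold (adjusted p = 0.356 by limma). Shh lay below the median gene on every array, and arrays tend to understate differences of genes this dim. Hepatocyte markers were bright in the labelled tissue, with summed linear signals of 48919 to 51952 over 6 genes such as Alb and Ttr in SHH livers and 49819 to 50024 in GFP livers. No gene passed the threshold in the comparison of SHH with GFP (limma with Benjamini-Hochberg adjustment, 0.05), higher or lower (0.0% of 22180 genes each way), so the looser threshold of an unadjusted p under 0.05 is used below only to describe. The liver of SHH 31 stood apart for several collagens, and results that rest on it are given with and without it.

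Taken as a set, the collagens were about evenly split between higher and lower means. In whole liver, more cells of a type and more RNA per cell cannot be told apart. Of the 44 chains, 24 had higher and 20 lower means in SHH livers, and the median difference was 0.01, against -0.03 over all genes. Over all genes 43.8% of means were higher and 56.2% lower. Differences ran from -0.40 (Col27a1) to 0.52 (Col14a1). None of the 44 passed over all genes, the smallest adjusted p being 0.556 (limma, Col14a1). At an unadjusted p under 0.05, 3 chains were higher (Col14a1, Col4a1 and Col4a2), where 3.33% of all genes were, and 1 was lower (Col27a1), where 4.01% were. The groups did not overlap for 5 higher chains (Col14a1, Col1a1, Col4a1, Col4a2 and Col22a1), where the share of all genes was 5.26%, and for 3 lower ones (Col27a1, Col24a1 and Col26a1), where it was 7.25%. Col24a1 was apart only narrowly, at 4.568 in SHH 31 against 4.576 in GFP 6, and lay below the median gene on every array. Without SHH 31 the count of higher means became 18 of 44 and the median difference -0.07, and over all genes 44.6% of means were then higher.

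**Figure D1:**
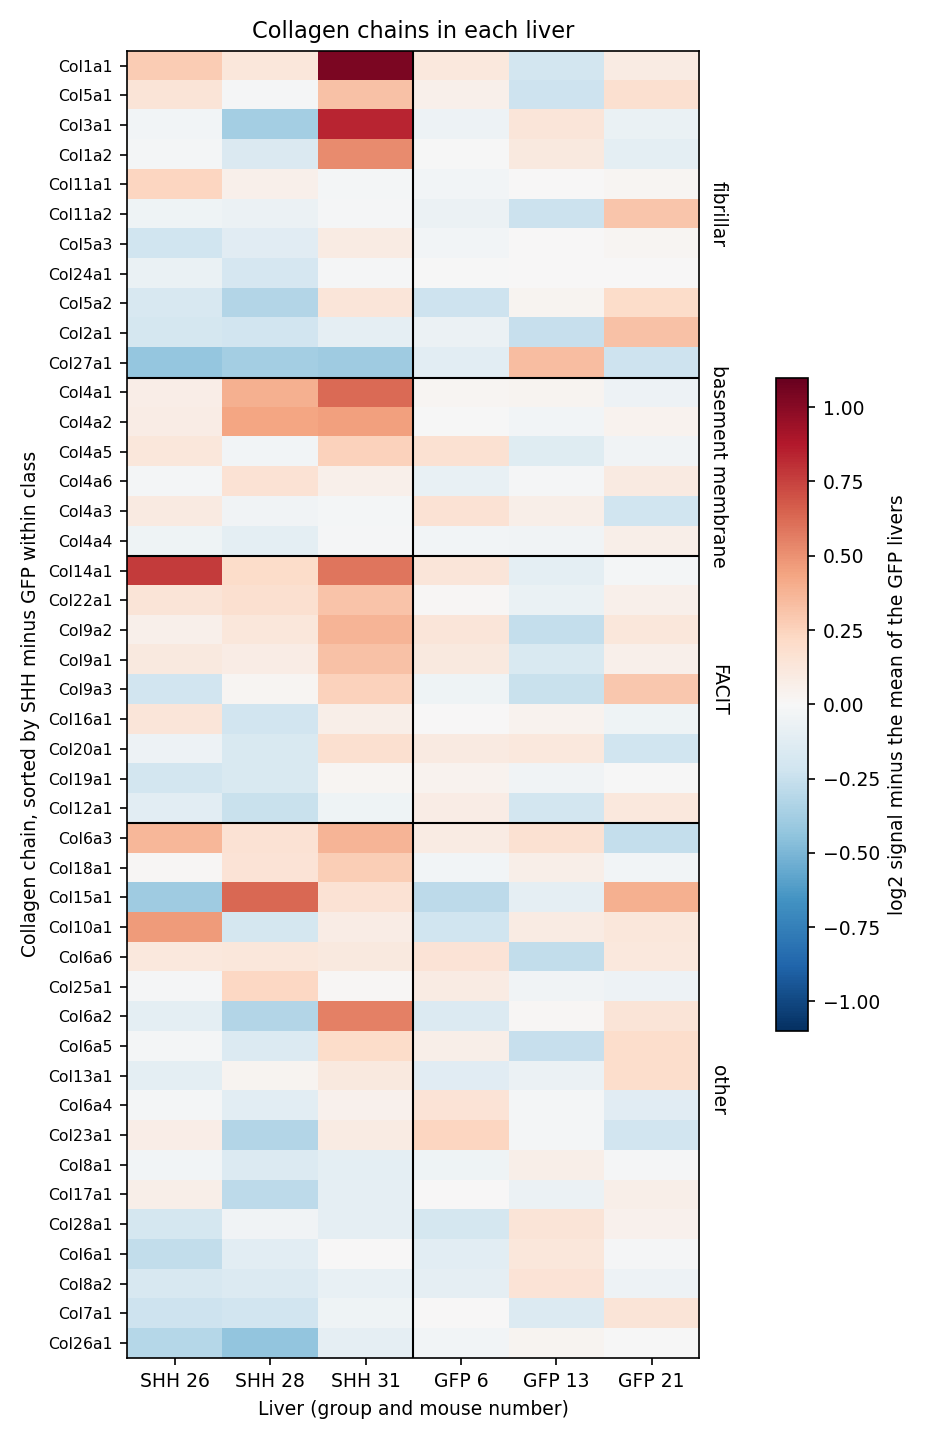
Log2 signal of each of the 44 collagen chains in each liver, minus the mean of the GFP livers (colour), with SHH livers left of the line and GFP livers right of it, sorted by SHH minus GFP within each class. The darkest red cells are Col1a1 and Col3a1 in SHH 31, while Col14a1 is red in every SHH liver and Col27a1 blue in every SHH liver.

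Signal strength bears on how much these differences can say, since arrays tend to understate differences of dim genes. On every array 20 chains lay above the median gene, 2 of them (Col14a1 and Col18a1) above the upper quartile, and 17 lay below the median gene on every array. The other 7 crossed it. Each of the 4 chains at an unadjusted p under 0.05 was among the 20 bright ones. The remaining 24 chains differed by -0.17 to 0.21. Chains best known from cartilage lay on both sides of this split. Col2a1, Col9a1 and Col10a1 were among the 24, and Col9a2, Col11a2 and Col27a1 among the 20 bright ones.

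Among the fibrillar chains, Col1a1 had the largest positive difference. It encodes the alpha-1 chain of type I collagen, the main protein of scars. Col1a1 signal was 5.71, 5.55 and 6.47 in SHH mice 26, 28 and 31, against 5.54, 5.22 and 5.52 in GFP mice 6, 13 and 21. All SHH livers were above all GFP livers, but SHH 28 barely so, and SHH 31 lay far above the rest. Col1a1 averaged 5.91 ± 0.49 in SHH livers and 5.43 ± 0.18 in GFP livers (SD, n = 3 each), a difference of 0.48 (1.40-fold, SE 0.23, 95% interval -0.04 to 1.0; limma, adjusted p = 0.707), and 0.20 without SHH 31.

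Its partner chain Col1a2 and the type III chain Col3a1 did not separate the groups. Col1a2 signal was 5.30, 5.17 and 5.85 in SHH mice 26, 28 and 31, against 5.32, 5.43 and 5.22 in GFP mice 6, 13 and 21. Col3a1, which co-assembles with type I in fibres, had 5.80, 5.45 and 6.67 in SHH mice 26, 28 and 31, against 5.77, 5.96 and 5.76 in GFP mice 6, 13 and 21. For both chains SHH 31 was the highest of the 6 livers and SHH 28 the lowest. The differences of 0.11 for Col1a2 (95% interval -0.30 to 0.53; limma, adjusted p = 0.931) and 0.14 for Col3a1 (-0.47 to 0.76; adjusted p = 0.940) became -0.09 and -0.20 without SHH 31. SHH 31 also had the highest summed linear signal of leukocyte and macrophage markers, 1646 against 553 to 978 in the other livers. Its portal fibroblast sum was the highest too, 371 against 256 to 370. Its myofibroblast and endothelial sums were the highest of the SHH livers but below GFP 6. Its stellate cell, hepatocyte, mesothelial and bile duct sums were the lowest of the SHH livers. The part of these cells in the collagen signals of SHH 31 was not tested. Type I collagen usually joins Col1a1 and Col1a2 in 1 molecule. The log2 ratio of Col1a1 to Col1a2 signal was 0.41, 0.39 and 0.62 in SHH mice 26, 28 and 31, against 0.22, -0.21 and 0.30 in GFP mice 6, 13 and 21, so it was higher in all SHH livers, and its mean difference of 0.37 was 0.29 without SHH 31. This ratio was not tested.

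The 300-base window around the Col1a2 start, from 250 bases before it to 50 after, is shown because this chain of type I collagen did not separate the groups while its partner did. It lies on the plus strand at chr6:4505368-4505667 (RefSeq, GRCm38.p6), and the capitals mark 2 matches to CCAAT on either strand, the box bound by the transcription factor NF-Y.
Col1a2: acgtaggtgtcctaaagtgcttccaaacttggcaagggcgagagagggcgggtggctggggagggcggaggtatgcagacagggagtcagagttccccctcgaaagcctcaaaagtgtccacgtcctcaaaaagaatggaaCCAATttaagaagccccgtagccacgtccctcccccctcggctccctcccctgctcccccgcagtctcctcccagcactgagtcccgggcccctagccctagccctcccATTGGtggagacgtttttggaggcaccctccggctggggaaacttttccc
A window for Col1a1 was not used here.

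Among the 44 chains Col27a1 was the only one lower at an unadjusted p under 0.05. It encodes a fibrillar chain best known from developing cartilage. Its signal was 5.74, 5.79 and 5.77 in SHH mice 26, 28 and 31, against 6.05, 6.50 and 5.94 in GFP mice 6, 13 and 21. The SHH livers lay close together and all below the GFP livers, of which GFP 13 was the highest. Col27a1 averaged 5.77 ± 0.03 in SHH livers and 6.16 ± 0.30 in GFP livers (SD, n = 3 each), a difference of -0.40 (1.32-fold lower, SE 0.16, 95% interval -0.76 to -0.03; limma, adjusted p = 0.663), which was -0.23 without GFP 13. It kept an unadjusted p under 0.05 without GFP 6 and without GFP 21, and lost it without each other liver. The window around its start, shown because this chain had the largest negative difference, lies on the plus strand at chr4:63215162-63215461 (RefSeq, GRCm38.p6), and the capitals mark 2 matches to the GC box GGGCGG on either strand.
Col27a1: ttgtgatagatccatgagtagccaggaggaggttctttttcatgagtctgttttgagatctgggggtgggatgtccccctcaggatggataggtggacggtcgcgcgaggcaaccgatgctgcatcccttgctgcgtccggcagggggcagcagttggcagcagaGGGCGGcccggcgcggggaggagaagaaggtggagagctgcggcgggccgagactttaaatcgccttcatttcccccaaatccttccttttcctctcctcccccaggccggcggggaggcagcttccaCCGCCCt

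The other fibrillar chains differed little. Col5a1 and Col5a2 encode chains of type V collagen, which starts and limits the growth of type I fibrils. Col5a1 signal was 5.21, 5.06 and 5.39 in SHH mice 26, 28 and 31, against 5.13, 4.84 and 5.24 in GFP mice 6, 13 and 21, a difference of 0.15 (limma, adjusted p = 0.888) that was 0.064 without SHH 31 and 0.034 without GFP 13. Col5a2 signal was 4.87, 4.72 and 5.17 in SHH mice 26, 28 and 31, against 4.81, 5.07 and 5.24 in GFP mice 6, 13 and 21, a difference of -0.12 (limma, adjusted p = 0.919) that was -0.25 without SHH 31 and ran from -0.25 to -0.021 when each liver was left out in turn. The groups overlapped for both. Col2a1, the cartilage fibril chain, had 4.45, 4.44 and 4.55 in SHH mice 26, 28 and 31, against 4.58, 4.39 and 4.97 in GFP mice 6, 13 and 21, with GFP 21 alone high. Of the 11 fibrillar chains, 5 had higher and 6 lower means, with a median of -0.04. Without SHH 31, 3 were higher and 8 lower, with a median of -0.13.

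In the basement membrane class Col4a1 and Col4a2 were both higher in every SHH liver than in any GFP liver. They encode the chains of the type IV network found in most basement membranes. Col4a1 signal was 5.69, 6.01 and 6.24 in SHH mice 26, 28 and 31, against 5.64, 5.64 and 5.56 in GFP mice 6, 13 and 21. Col4a2 signal was 5.45, 5.81 and 5.82 in SHH mice 26, 28 and 31, against 5.37, 5.34 and 5.42 in GFP mice 6, 13 and 21. For both chains SHH 28 and SHH 31 were clearly above the GFP livers, while SHH 26 lay only just above them. Col4a1 averaged 5.98 ± 0.27 in SHH livers and 5.61 ± 0.05 in GFP livers (SD, n = 3 each), a difference of 0.36 (1.29-fold, SE 0.16, 95% interval 0.01 to 0.72; limma, adjusted p = 0.668). Col4a2 averaged 5.70 ± 0.21 in SHH livers and 5.38 ± 0.04 in GFP livers, a difference of 0.32 (1.25-fold, SE 0.14, 95% interval 0.01 to 0.63; limma, adjusted p = 0.675).

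Leaving out SHH 31 left differences of 0.24 for Col4a1 and 0.26 for Col4a2, with limma's adjusted p = 0.775 and 0.762. Leaving out SHH 26 gave 0.51 and 0.44, with limma's adjusted p = 0.382 and 0.414. Both chains kept an unadjusted p under 0.05 without SHH 26 and lost it without each other liver. The log2 ratio of Col4a1 to Col4a2 was 0.24, 0.20 and 0.41 in SHH mice 26, 28 and 31, against 0.27, 0.30 and 0.14 in GFP mice 6, 13 and 21, so the ratio overlapped between the groups. The other 4 type IV chains, which belong to specialised basement membranes such as that of the kidney glomerulus, differed by -0.06 (Col4a4) to 0.12 (Col4a5, 0.047 without SHH 31), and their groups overlapped. Col4a4 had 3.97, 3.91 and 4.02 in SHH mice 26, 28 and 31, against 4.0, 3.99 and 4.09 in GFP mice 6, 13 and 21. Of the 6 chains, 5 had higher means with and without SHH 31, and the class median was 0.09, or 0.06 without it.

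Col4a1 and Col4a2 lie head to head, and their start windows are shown because the pair had like differences. Their RefSeq start sites are 21 bases apart on opposite strands, each lying within the first bases of the other gene, so their 5' ends overlap. The windows share 78 bases, given in capitals. The Col4a1 window is on the minus strand at chr8:11312777-11313076 and the Col4a2 window on the plus strand at chr8:11312555-11312854 (GRCm38.p6).
Col4a1: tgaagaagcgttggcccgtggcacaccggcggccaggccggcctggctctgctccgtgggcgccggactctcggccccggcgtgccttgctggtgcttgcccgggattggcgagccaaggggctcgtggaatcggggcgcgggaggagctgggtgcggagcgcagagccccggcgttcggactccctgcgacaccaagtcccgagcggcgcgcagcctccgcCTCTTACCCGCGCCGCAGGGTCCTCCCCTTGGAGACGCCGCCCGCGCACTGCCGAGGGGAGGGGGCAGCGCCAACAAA
Col4a2: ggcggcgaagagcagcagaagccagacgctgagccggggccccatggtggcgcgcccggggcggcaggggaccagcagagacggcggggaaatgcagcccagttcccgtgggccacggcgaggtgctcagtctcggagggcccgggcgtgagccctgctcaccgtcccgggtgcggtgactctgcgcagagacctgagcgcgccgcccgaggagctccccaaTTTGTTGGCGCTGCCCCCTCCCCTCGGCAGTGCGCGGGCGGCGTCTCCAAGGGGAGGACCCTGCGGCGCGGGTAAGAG
Each window holds 1 match to CCAAT. The shared stretch holds 1 match to GGGCGG and no whole match to CCAAT.

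Start windows were found for 35 of the 44 chains, 38 windows in all, and searched on both strands for motifs none of which holds another. The GLI site GACCACCCA, the sequence bound by the transcription factors at the end of the Hedgehog pathway, was in 0 of the 38 and in 0.253% of all 32851 windows. A motif that rare would be missing from most sets of 38 windows, so no conclusion is drawn from the 0. Col1a1 and Col14a1 were not among the chains searched. CCAAT was in 34.2% of the collagen windows and 37.4% of all windows, and TATAAA in 13.2% and 13.6%. GGGCGG was in 60.5% of the collagen windows and 35.7% of all windows. These are counts of letters in short windows, which do not show where a factor binds.

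Among the FACIT chains, Col14a1 had the largest difference of all collagens. Type XIV collagen coats fibrils of type I, and in liver its gene marks fibroblast-like cells. Its signal was 7.79, 7.23 and 7.61 in SHH mice 26, 28 and 31, against 7.15, 6.92 and 7.0 in GFP mice 6, 13 and 21. Every SHH liver was above every GFP liver, with SHH 26 highest and SHH 28 closest to the GFP range. Col14a1 averaged 7.55 ± 0.29 in SHH livers and 7.03 ± 0.12 in GFP livers (SD, n = 3 each), a difference of 0.52 (1.43-fold, SE 0.16, 95% interval 0.15 to 0.89; limma, adjusted p = 0.556). It was 0.49 without SHH 31, and between 0.40 and 0.68 when each liver was left out in turn, with an unadjusted p under 0.05 each time. A start window for Col14a1 was not used here.

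**Figure D2:**
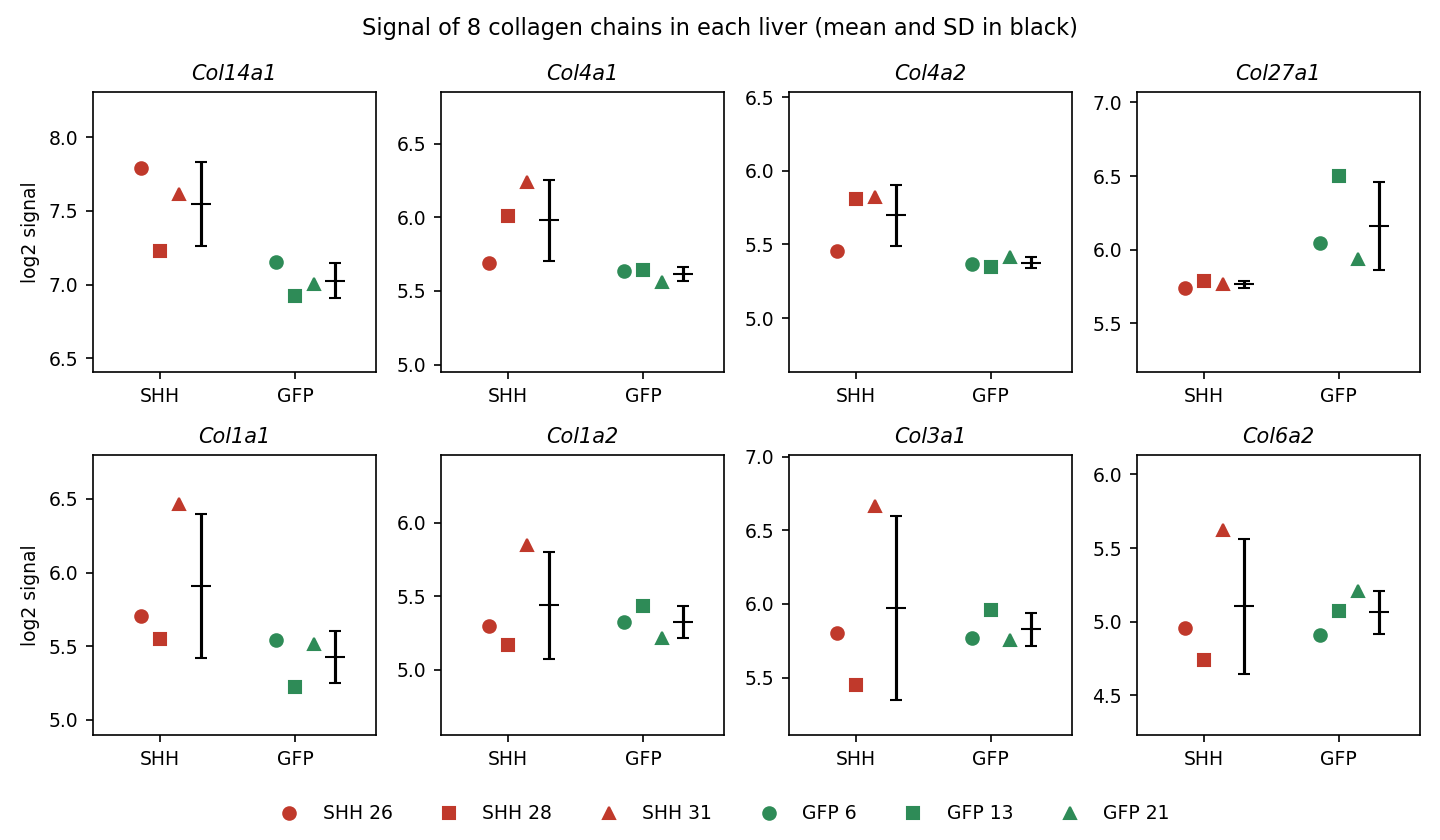
Log2 signal of 8 collagen chains in each SHH (left, red) and GFP (right, green) liver, 1 point per mouse, with the mean and SD of 3 mice in black and the same height of scale in every panel. Col14a1, Col4a1, Col4a2 and Col1a1 have all SHH points above the GFP points, and Col27a1 has all below. The groups overlap in Col1a2, Col3a1 and Col6a2. SHH 31 is the high point in every panel but those of Col14a1 and Col27a1.

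Col22a1, a chain of tissue junctions, was the other FACIT chain whose groups did not overlap. Its signal was 4.56, 4.59 and 4.73 in SHH mice 26, 28 and 31, against 4.43, 4.34 and 4.47 in GFP mice 6, 13 and 21, a difference of 0.21 (limma, adjusted p = 0.765), below the median gene on every array. Col12a1, a close relative of Col14a1, had 3.84, 3.71 and 3.90 in SHH mice 26, 28 and 31, against 4.04, 3.75 and 4.07 in GFP mice 6, 13 and 21. Its groups overlapped at low signal, with a difference of -0.13 (limma, adjusted p = 0.888) that ran from -0.24 to -0.075 when each liver was left out. Col19a1 had 4.09, 4.13 and 4.31 in SHH mice 26, 28 and 31, against 4.33, 4.26 and 4.29 in GFP mice 6, 13 and 21, a difference of -0.12, or -0.18 without SHH 31. Of the 9 FACIT chains, 5 had higher and 4 lower means, with a median of 0.02, or -0.04 without SHH 31.

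The remaining chains held the beaded filaments of type VI collagen, which link cells to the surrounding matrix. Col6a3 signal was 5.53, 5.32 and 5.54 in SHH mice 26, 28 and 31, against 5.25, 5.34 and 4.91 in GFP mice 6, 13 and 21, a difference of 0.30 (1.23-fold, 95% interval -0.04 to 0.64; limma, adjusted p = 0.726). SHH 28 lay just under GFP 13, and GFP 21 was the low liver, without which the difference was 0.17. Col6a2 signal was 4.96, 4.74 and 5.62 in SHH mice 26, 28 and 31, against 4.91, 5.07 and 5.21 in GFP mice 6, 13 and 21. As in Col1a2 and Col3a1, SHH 31 was highest and SHH 28 lowest, and the difference of 0.04 became -0.21 without SHH 31. Col6a1 signal was 5.27, 5.43 and 5.55 in SHH mice 26, 28 and 31, against 5.43, 5.67 and 5.54 in GFP mice 6, 13 and 21, a difference of -0.13 (limma, adjusted p = 0.888) that ran from -0.20 without SHH 31 to -0.059 without SHH 26. The 3 chains of the common type VI molecule therefore had differences of unlike sign, none past the threshold.

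The multiplexins Col18a1 and Col15a1 belong to basement membrane zones, Col18a1 being the source of endostatin and made by hepatocytes as well as vessels. Col18a1 was bright and steady at 8.44, 8.58 and 8.70 in SHH mice 26, 28 and 31, against 8.40, 8.50 and 8.40 in GFP mice 6, 13 and 21, a difference of 0.14 (95% interval -0.14 to 0.42; limma, adjusted p = 0.858) that was 0.080 without SHH 31. Col15a1 spread widely within both groups, with 4.22, 5.25 and 4.77 in SHH mice 26, 28 and 31, against 4.32, 4.51 and 5.01 in GFP mice 6, 13 and 21. Its difference of 0.13 had a 95% interval of -0.47 to 0.74 and ran from -0.12 without SHH 28 to 0.39 without SHH 26.

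Col26a1, known mainly from testis and ovary, had the lowest difference of the remaining chains. Its signal was 5.09, 4.96 and 5.30 in SHH mice 26, 28 and 31, against 5.37, 5.43 and 5.39 in GFP mice 6, 13 and 21, with all SHH livers below the narrow GFP range, a difference of -0.28 (1.22-fold lower, 95% interval -0.58 to 0.02; limma, adjusted p = 0.698). Col7a1, the chain of anchoring fibrils under epithelia, had 4.42, 4.44 and 4.60 in SHH mice 26, 28 and 31, against 4.65, 4.5 and 4.79 in GFP mice 6, 13 and 21, a difference of -0.16, or -0.089 without GFP 21. Of the 18 chains outside the named classes, 9 had higher and 9 lower means, with a median of -0.01, or -0.09 without SHH 31.

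**Figure D3:**
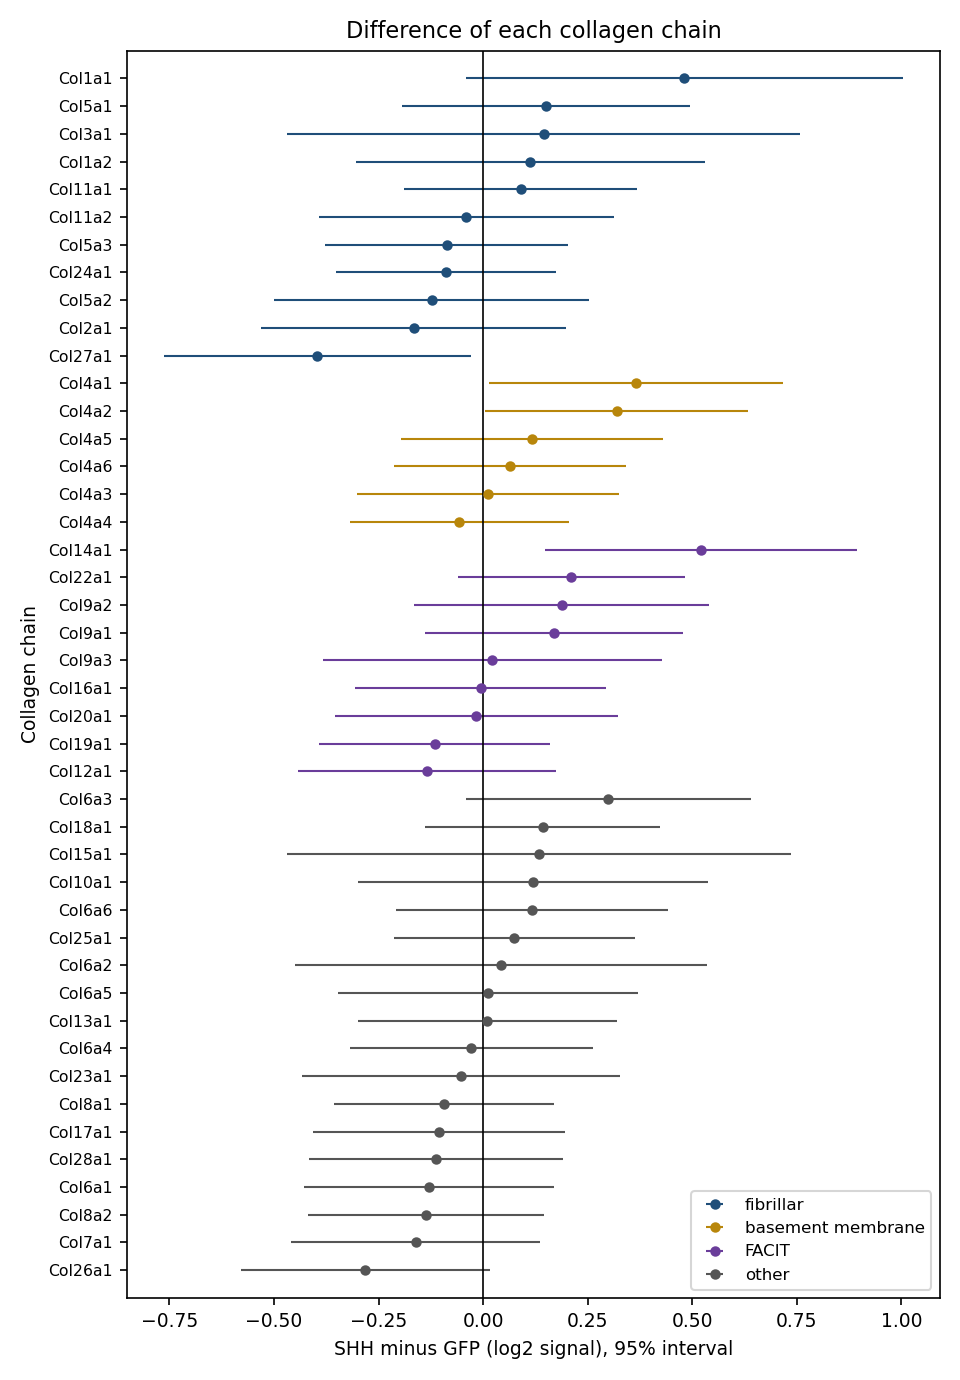
SHH minus GFP difference in log2 signal of each collagen chain (points, coloured by class), with 95% intervals from limma (bars). The intervals of Col14a1, Col4a1 and Col4a2 lie above 0 and that of Col27a1 below it, and the other 40 include 0.

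The livers differed in which collagens were high. SHH 31 was the highest of the 6 livers for 16 of 44 chains (36.4%). The share was 18.8% of all genes and 28.2% of genes between the quartiles of the chains' mean level. It led the next liver by 0.76 for Col1a1, 0.71 for Col3a1, and 0.41 for both Col1a2 and Col6a2. SHH 31 was the lowest for 0 chains and for 4917 of all 22180 genes. SHH 28 was the highest for 3 and the lowest for 12 chains, against 3906 and 3980 of all genes. SHH 26 was the highest for 4 and the lowest for 7 chains, against 2495 and 3756 of all genes. Among the 3 SHH livers alone, SHH 31 was the highest for 31 of 44 chains (70.5%) and for 36.4% of all genes. Genes between the quartiles of the chains' mean level, 4.23 to 5.41, also leaned toward SHH 31, at 49.6%, and its array median over probe sets was the highest of the 6 (4.40, the others being 4.32 to 4.39). With equal array medians SHH 31 was the highest for 22 of 44 chains, 38.6% of genes at that level and 26.9% of all genes, and after a second quantile normalization for 59.1% of chains, 39.3% of genes at that level and 34.8% of all genes.

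Class medians per liver were taken as deviations from the GFP mean. The fibrillar median was -0.05, -0.16 and 0.09 in SHH mice 26, 28 and 31, against -0.03, 0.01 and 0.03 in GFP mice 6, 13 and 21. The basement membrane median was 0.08, 0.07 and 0.16 in SHH mice 26, 28 and 31, against 0.01, -0.02 and 0.00 in GFP mice 6, 13 and 21, and was the only class median above every GFP liver in all SHH livers. Because the deviations are centred on the GFP livers, this separation is a description and was not tested. The FACIT median was 0.06, 0.02 and 0.26 in SHH mice 26, 28 and 31, against 0.08, -0.11 and 0.06 in GFP mice 6, 13 and 21. Since 4 of the 6 basement membrane chains differed little, that median is small beside the differences of Col4a1 and Col4a2.

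**Figure D4:**
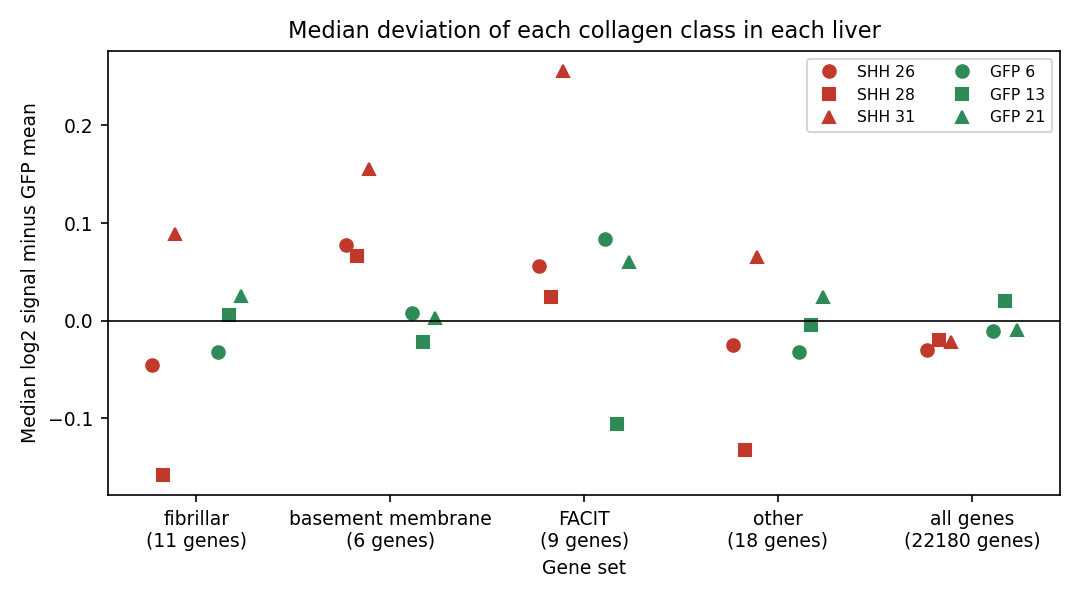
Median over the genes of each collagen class, and over all genes, of log2 signal minus the mean of the GFP livers, 1 point per liver (SHH left and red, GFP right and green). SHH 31 is the highest liver in every collagen class, at 0.09, 0.16, 0.26 and 0.06, and SHH 28 is below the GFP livers in the fibrillar class and among the other chains.

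Genes that fold, process, cross-link and bind collagen were set beside the chains, 37 of 42 listed genes being measured. None passed over all genes, and at an unadjusted p under 0.05, 2 were higher (Loxl4 and Ddr2) and 1 lower (Gp6), where 3.33% and 4.01% of all genes were. Of 17 genes for folding and hydroxylation in the endoplasmic reticulum, 9 had higher and 8 lower means and 0 reached that p. Serpinh1, the collagen-specific chaperone, had 5.44, 5.54 and 6.01 in SHH mice 26, 28 and 31, against 5.58, 5.77 and 5.69 in GFP mice 6, 13 and 21. SHH 31 was again the highest liver and SHH 26 and 28 the lowest ones, with a difference of -0.02 that became -0.19 without SHH 31. P4ha1, a subunit of the prolyl hydroxylase that stabilises the helix, was 1.38-fold lower (95% interval of the log2 difference -1.17 to 0.23), with GFP 13 at 8.02 and all other livers between 6.57 and 7.35. P3h4 and P3h3, which act in the modification of helical lysine and proline, differed by -0.21 and 0.17.

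Of 7 measured genes for propeptide removal, 6 had higher means, as 43.8% of all genes did, and 0 had an unadjusted p under 0.05. Those 6 differences ran from 0.0034 to 0.22, and the median of the 7 was 0.05. Pcolce2 and Pcolce, enhancers of that cleavage, differed by 0.22 and 0.19, and the protease Tll1 by -0.31. Among 4 cross-linking enzymes Loxl4 was 4.78, 4.78 and 4.68 in SHH mice 26, 28 and 31, against 4.51, 4.33 and 4.37 in GFP mice 6, 13 and 21. All SHH livers were above all GFP livers, a difference of 0.34 (1.27-fold; limma, adjusted p = 0.600) that was 0.37 without SHH 31. Loxl1 differed by 0.24, or 0.06 without SHH 31. Lox, the best known cross-linker of scar collagen, was dim at 2.81, 3.19 and 3.41 in SHH mice 26, 28 and 31, against 3.06, 3.52 and 3.21 in GFP mice 6, 13 and 21.

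Of 9 collagen receptors 4 had higher and 5 lower means. Ddr2, a receptor kinase for fibrillar collagen found on fibroblast-like cells, was 5.01, 5.10 and 5.17 in SHH mice 26, 28 and 31, against 4.64, 4.83 and 4.54 in GFP mice 6, 13 and 21. Its groups were separate, with a difference of 0.42 (1.34-fold, 95% interval 0.13 to 0.71; limma, adjusted p = 0.551) that was 0.38 without SHH 31. Gp6, the collagen receptor of platelets, was 3.72, 3.59 and 3.65 in SHH mice 26, 28 and 31, against 4.18, 4.43 and 4.48 in GFP mice 6, 13 and 21, a difference of -0.71 (1.64-fold lower, 95% interval -1.01 to -0.42; limma, adjusted p = 0.328). Its signal lay below the median gene on every array. Lair1, an inhibitory collagen receptor of leukocytes, differed by 0.36, or 0.23 without SHH 31, with SHH 26 inside the GFP range.

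Whole liver holds many cell types, and lists of their markers were set beside the collagens. Over all genes 43.8% of means were higher and 56.2% lower, and at an unadjusted p under 0.05 the shares were 3.33% and 4.01%. Of 6 leukocyte and macrophage markers, 6 had higher means and 4 an unadjusted p under 0.05 (Ptprc, Adgre1, Clec4f and Itgam), and their summed linear signal was 821, 932 and 1646 in SHH mice 26, 28 and 31, against 978, 567 and 553 in GFP mice 6, 13 and 21. That sum was highest in SHH 31, the liver with the highest type I and III collagen signals. Stellate cell markers had higher means for 7 of 8 members and 0 at that p, with sums of 857 to 964 in SHH livers and 827 to 898 in GFP livers, and SHH 31 was the lowest SHH liver. Portal fibroblast markers had higher means for 5 of 7 members, with Fbln2 (-0.15) and Dpt (-0.08) lower. Their sums were 282, 370 and 371 in SHH mice 26, 28 and 31, against 275, 284 and 256 in GFP mice 6, 13 and 21. Gas6, the brightest of the 7, was the only 1 at that p and weighs most in the sums. Its log2 signal was 6.61, 7.67 and 7.45 in SHH mice 26, 28 and 31, against 6.65, 6.69 and 6.48 in GFP mice 6, 13 and 21.

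Myofibroblast markers were not higher as a list. The mean was lower for 4 of 5 measured genes, among them the actin gene Acta2 (-0.33), and higher for Myl9 (0.16). None reached an unadjusted p under 0.05 (limma), and Timp1 was dim, under the lower quartile on all arrays. The myofibroblast sums were 205, 183 and 215 in SHH mice 26, 28 and 31, against 222, 205 and 225 in GFP mice 6, 13 and 21. All 6 endothelial markers, from cells that make type IV collagen, had lower means, and none reached that p. The endothelial sums were 761, 588 and 1047 in SHH mice 26, 28 and 31, against 1107, 908 and 763 in GFP mice 6, 13 and 21. Mesothelial markers had sums of 102 to 105 in SHH livers and 102 to 116 in GFP livers, and bile duct markers 104 to 110 in SHH livers and 99.5 to 123 in GFP livers. The part of these cells in the collagen values was not tested.

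Col1a2, Col5a1 and Col6a1 each had a second, dimmer probe set, which differed by -0.10, -0.15 and -0.08. For Col1a2 and Col5a1 that sign was opposite to the brighter probe set, and none of the 6 values passed the threshold (limma).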

How the data were processed

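RNA of 6 livers was hybridised to 1 Affymetrix array each. The deposited values are log2 signals made with RMA by the authors, per the submitters' processing notes; its version and summary level are not stated there. RMA equalises the arrays and shrinks differences of dim genes. The table held 41345 probe sets, of which platform annotation named 1 gene for 23521, several for 1814 and none for 16010. From these, 22180 genes were read through the single-gene probe set with the highest mean. SHH minus GFP was fitted with limma 3.58.1 in R 4.3.3 (lmFit, eBayes, two-sided), with no filter or covariate and Benjamini-Hochberg adjustment over all genes. The labels name separate mice, and no number pairs them across groups. The number of arrays limits the precision. Named were Col1a1, Col1a2, Col3a1, Col4a1, Col4a2, Col5a1, Col5a2, Col6a1, Col6a2, Col6a3, Col12a1, Col14a1, Col15a1 and Col18a1. So were the 2 chains per class and direction with the smallest p, up to 3 genes per processing list, and Lox, Serpinh1 and Shh. Col24a1 and the chains named for range or class were named after their values were seen. The alternatives were other probe sets per gene, only brighter genes, other scalings, other limma priors, array weights, another class definition and leaving out each mouse. Members and lists were chosen with earlier results of these data known. The fit was tested on simulated data with planted differences larger than any collagen difference found here. That test does not cover differences of the size reported. Start windows came from RefSeq.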

Additional observations from a re-analysis of the deposited data

How the results depend on the processing

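No paired analysis was possible because no mouse number occurs in both SHH and GFP livers. Counts of collagens past the adjusted threshold (limma) were 0 higher and 0 lower under every alternative run, an adjusted p of 0.1 included. Over all genes that count was 0 in each direction except without SHH 26, when 30 genes were higher and 16 lower, 0 of them collagens, so without one mouse it ranged from 0 to 30 higher and 0 to 16 lower. At an unadjusted p under 0.05, 3 collagens were higher and 1 lower in all 6 livers. Among only genes above the median level 2 were lower, 1 processing gene was higher and 0 lower, and the basement membrane median was 0.34, since fewer chains entered. A second quantile normalization gave 2 lower, with 3 processing genes higher (2 as deposited). Equal array medians gave 4 higher, Col1a1 being added, and 3 processing genes higher. Array weights gave 1 higher and 2 lower. The cause was not tested. Without one mouse, 1 to 3 collagens were higher (1 without SHH 31, GFP 6 or GFP 21) and 0 to 1 lower, and 1 to 3 processing genes were higher and 1 to 2 lower. The median difference then ran from -0.074 to 0.079 over all chains, -0.13 to 0.059 for fibrillar, 0.054 to 0.15 for basement membrane, -0.039 to 0.17 for FACIT and -0.086 to -2.8e-05 for other chains, the low values being without SHH 31 except for basement membrane (without GFP 13).

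Some chains changed sign, and none of them was past the adjusted threshold. In all 6 livers their differences were as large as 0.15 (Col5a1), 0.14 (Col3a1) and 0.11 (Col1a2), where the median absolute difference of the 44 chains was 0.12. By probe set, Col5a1 became -0.15 with the probe set of largest spread, which is its other one, and Col1a2 -0.10 with its other one. A second quantile normalization gave Col16a1 0.012 and Col6a4 0.0087, equal array medians gave Col16a1 0.017 and Col20a1 0.0066, and array weights gave Col4a3 -0.0033, Col9a3 -0.023, Col16a1 0.0047 and Col6a5 -0.023. Without one mouse the difference ranged from -0.091 to 0.25 for Col1a2, -0.20 to 0.41 for Col3a1, -0.16 to 0.11 for Col11a2, -0.097 to 0.089 for Col4a3, -0.10 to 0.17 for Col9a3, -0.074 to 0.096 for Col16a1, -0.12 to 0.058 for Col20a1, -0.21 to 0.23 for Col6a2, -0.092 to 0.045 for Col6a4, -0.12 to 0.11 for Col6a5, -0.017 to 0.19 for Col6a6, -0.055 to 0.27 for Col10a1, -0.054 to 0.11 for Col13a1, -0.12 to 0.39 for Col15a1, -0.16 to 0.080 for Col23a1 and -0.0013 to 0.12 for Col25a1. Of the remaining alternative values, 322 under other settings and 234 without one mouse kept their direction and side of the threshold. Adjusted p over the alternatives (limma) ran from 0.418 to 0.874 for Col14a1, 0.382 to 0.903 for Col4a1, 0.414 to 0.924 for Col4a2, 0.512 to 0.925 for Col27a1 and 0.581 to 0.938 for Col1a1. With the multiplexins and Col7a1 counted in, the basement membrane median was 0.12. The shares of chains with SHH 31 highest, and all values without SHH 31 for sets of chains, were chosen after seeing the data. Array number and dim signal limit what these values show.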
